A study of Canis lupus familiaris with 13 samples.

Results

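Transcripts of 34 genes of glycolysis and the hypoxia response were read in primary soft tissue sarcomas of dogs, malignant tumours of connective tissue, measured on an Affymetrix canine array. The genes were taken by their symbol in the platform annotation, with every probe set of each gene, a probe set being a group of short probes that reads a transcript. Probe sets with 1 gene symbol were found for 33 of the 34 genes, out of 15115 genes with such a probe set in the tests. They numbered 74, of which 3 were GAPDH control probe sets of the manufacturer and 71 were tested among 42924. LDHB, a subunit of lactate dehydrogenase, had only probe sets shared with other symbols and is not described by value. The metastatic group held 5 untreated primary tumours (MET1 to MET5), and the non-metastatic group held 8 untreated primary tumours (NM1 to NM8) with no metastasis for at least 1 year. The labels give no breed, age, sex or histological subtype. They do not say that each tumour came from its own dog, so the p-values cover only how these samples vary, which may be partly technical.

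Cells take up glucose through transporters of the SLC2A family and convert it by glycolysis to pyruvate, which is reduced to lactate or enters the mitochondrion for oxidation. The hypoxia-inducible factor subunit HIF1A is hydroxylated by the EGLN enzymes when oxygen is present, bound by VHL and degraded. Under low oxygen it escapes this, pairs with ARNT and raises transcription of glucose transporters, glycolytic enzymes and survival genes. Many tumours run glycolysis at a high rate even with oxygen, and HIF1A itself is controlled largely at the protein level, which an array does not read.

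All values are log2 intensities, and differences are metastatic minus non-metastatic on that scale, with the standard error (SE) of the limma fit over all 13 samples. A difference was called when its Benjamini-Hochberg adjusted p over all tested probe sets was under 0.05. Each gene is given at its tested probe set of highest mean. The labels name no batch. By the signal of their spike-in controls, read after the data were seen, the samples fell into 3 sets, called spike-in batches here: batch A held all 5 metastatic samples and NM5 to NM8, batch B held NM1, NM3 and NM4, and batch C held NM2. The 3′ minus 5′ signal of the ACTB control, often read as a measure of RNA integrity, lay between 1.40 and 2.87 in the metastatic samples. It lay between 1.23 and 2.24 in NM5 to NM8, between 0.39 and 0.88 in batch B, and at 3.14 in NM2. The 3′ minus 5′ signal of the spike-in controls was 3.90 in NM2 and between 0.33 and 0.865 in all other samples. The parts of RNA integrity and of labelling in the ACTB values were not tested. Only batch A held both groups, so the differences of the members that are given per sample, and of the other pathway genes where named, are also given within it. In batch B the spike-in signal was low, and from this the spike-in target was taken to be absent there. Spike-in probe sets read up to 7.16 in batch B, and a mean of either group at or under this value is not told apart from that range. Of 8 mesenchymal markers, VIM, COL1A2 and SPARC had the highest means and read between 12.77 and 13.95 in every sample, while LUM ran from 5.75 to 12.92 and PDGFRB from 8.31 to 11.48, and all 8 had both group means above 7.16. In contrast, the 3 measured epithelial and 3 measured erythroid markers had both group means under 7.16.

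Few of the glycolysis and hypoxia genes were called different between the groups. EGLN1 and GAPDH were the only members called at their tested probe set of highest mean, both higher in metastatic tumours. This is 2 of 33 genes beside 5.35% of all genes (1.65% higher and 3.70% lower). For GAPDH it was the 1 tested probe set, with both means under 7.16, and its 3 much brighter control probe sets were outside these tests. By probe set, 2 of 71 were called, beside 4.90% of all probe sets. The differences had a median of 0.11 over the 33 members and of 0.05 over all genes. Of the 33, 23 were positive, or 26 after quantile normalization, beside 8480 of all 15115 genes without that normalization. In batch A alone, 19 of the 33 were positive, beside 8292 of all 15115 genes. Within batch A, 0 members were called higher and 1 lower, which was ENO2, beside 2.82% of all genes and 2.78% of probe sets called in that fit. There, 6 members had an unadjusted p under 0.05 by limma, beside 3055 of all 15115 genes. Over all samples these counts were 10 members and 3616 genes. The members' median difference within batch A was 0.08, against 0.03 for all genes. EGLN1 was also the only member whose groups did not overlap, beside 2.96% of all genes (1.35% higher in metastatic tumours). With array weights, which give less weight to samples that depart more from their group, 5 members were called beside 9.67% of all genes. These were EGLN1, EGLN3, GPI and GAPDH, higher, and ENO2, lower. The lowest weights, between 0.29 and 0.58, were those of NM1 to NM4, the samples outside batch A.

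**Figure D1:**
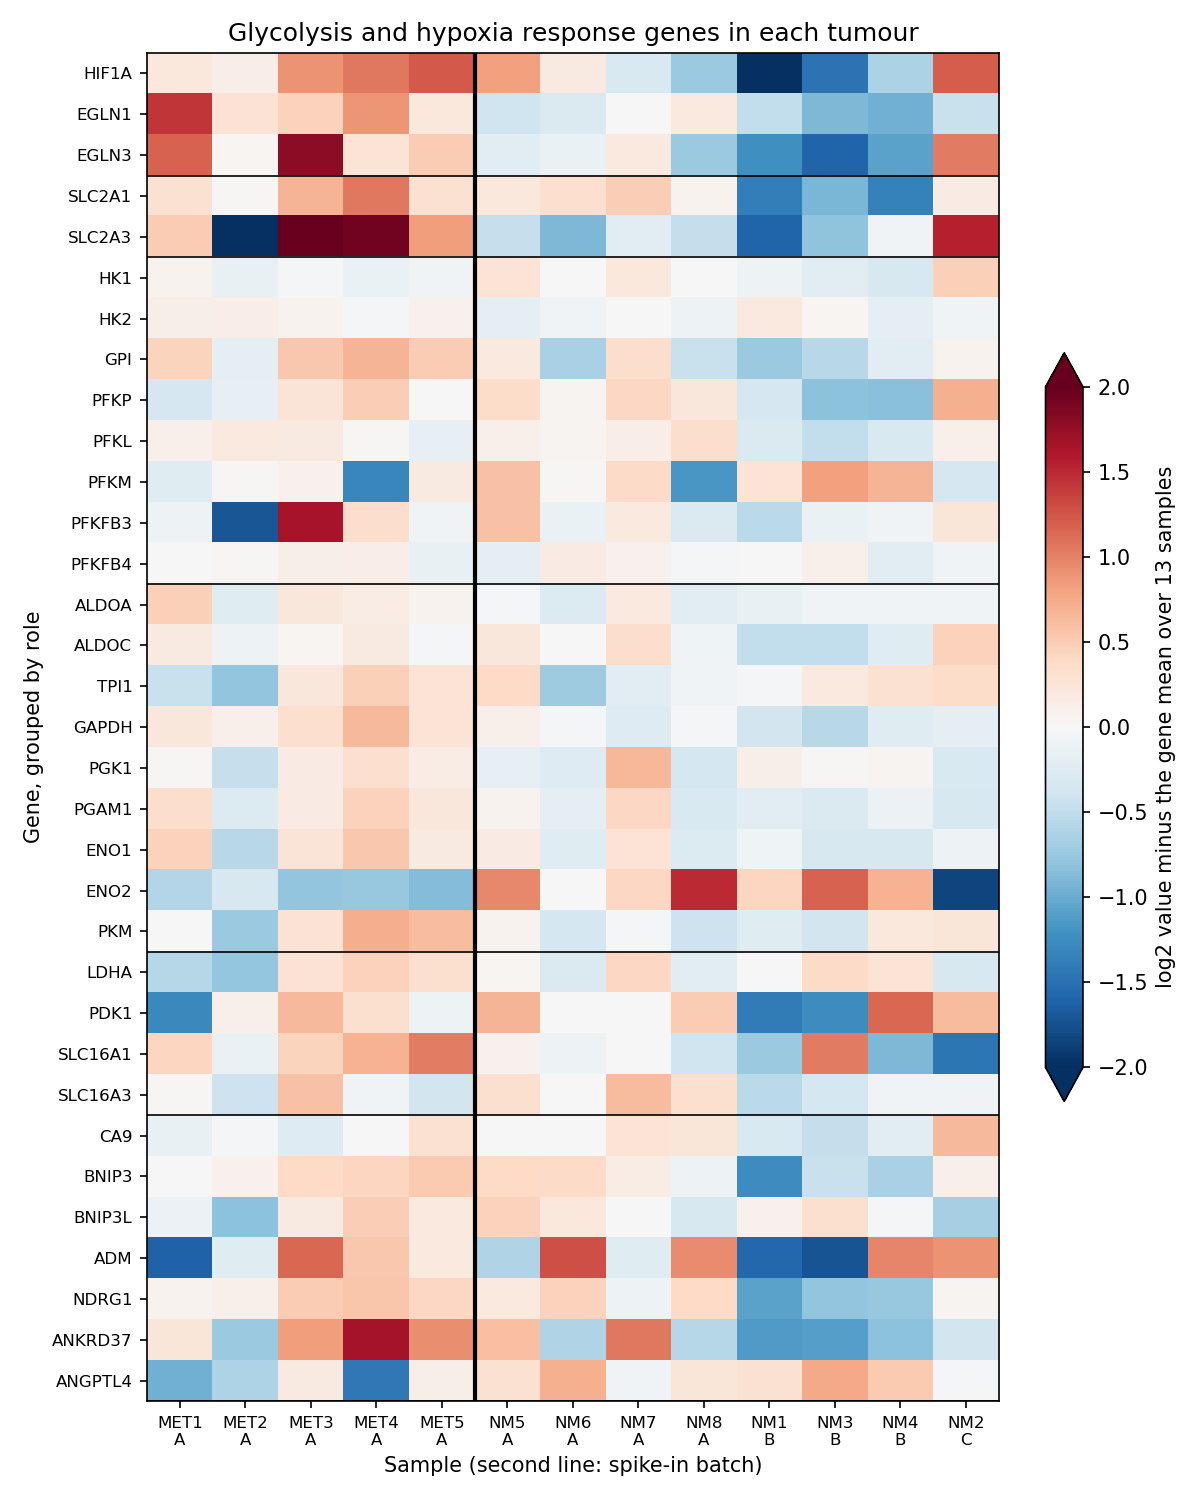
Log2 intensity of the 33 measured members in each of the 13 samples, each gene centred on its own mean, with genes ordered by role and samples by group and spike-in batch. MET4 held the highest of all 13 values in 11 members and NM1 the lowest in 9, and the 3 samples of batch B held the 3 lowest values for EGLN3, SLC2A1 and NDRG1. Shares of all genes for such extremes were not counted.

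Members also differed between spike-in batches. Among the non-metastatic tumours, 10 of the 33 members differed between batch A and batch B in a limma fit of those samples, all higher in batch A, beside 21.4% of all genes called in that comparison (17.1% higher in batch A). The median difference was 0.34 for the members and 0.11 for all genes. SLC2A1 differed by 1.50 (adjusted p = 0.00357), NDRG1 by 1.12 (adjusted p = 0.00603) and EGLN3 by 1.08 (adjusted p = 0.0181). EGLN1 differed by 0.67 (adjusted p = 0.042). HIF1A read 8.85 on average in batch B and 10.41 in the non-metastatic samples of batch A (adjusted p = 0.064). For such genes the difference over all 13 samples sets metastatic tumours of batch A partly against tumours of batch B, and the share of it that belongs to the batch was not tested beyond the values within batch A. In 20 of the 33 members, the difference lay closer to 0 within batch A than over all samples, as it did in 9186 of all 15115 genes.

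**Figure D2:**
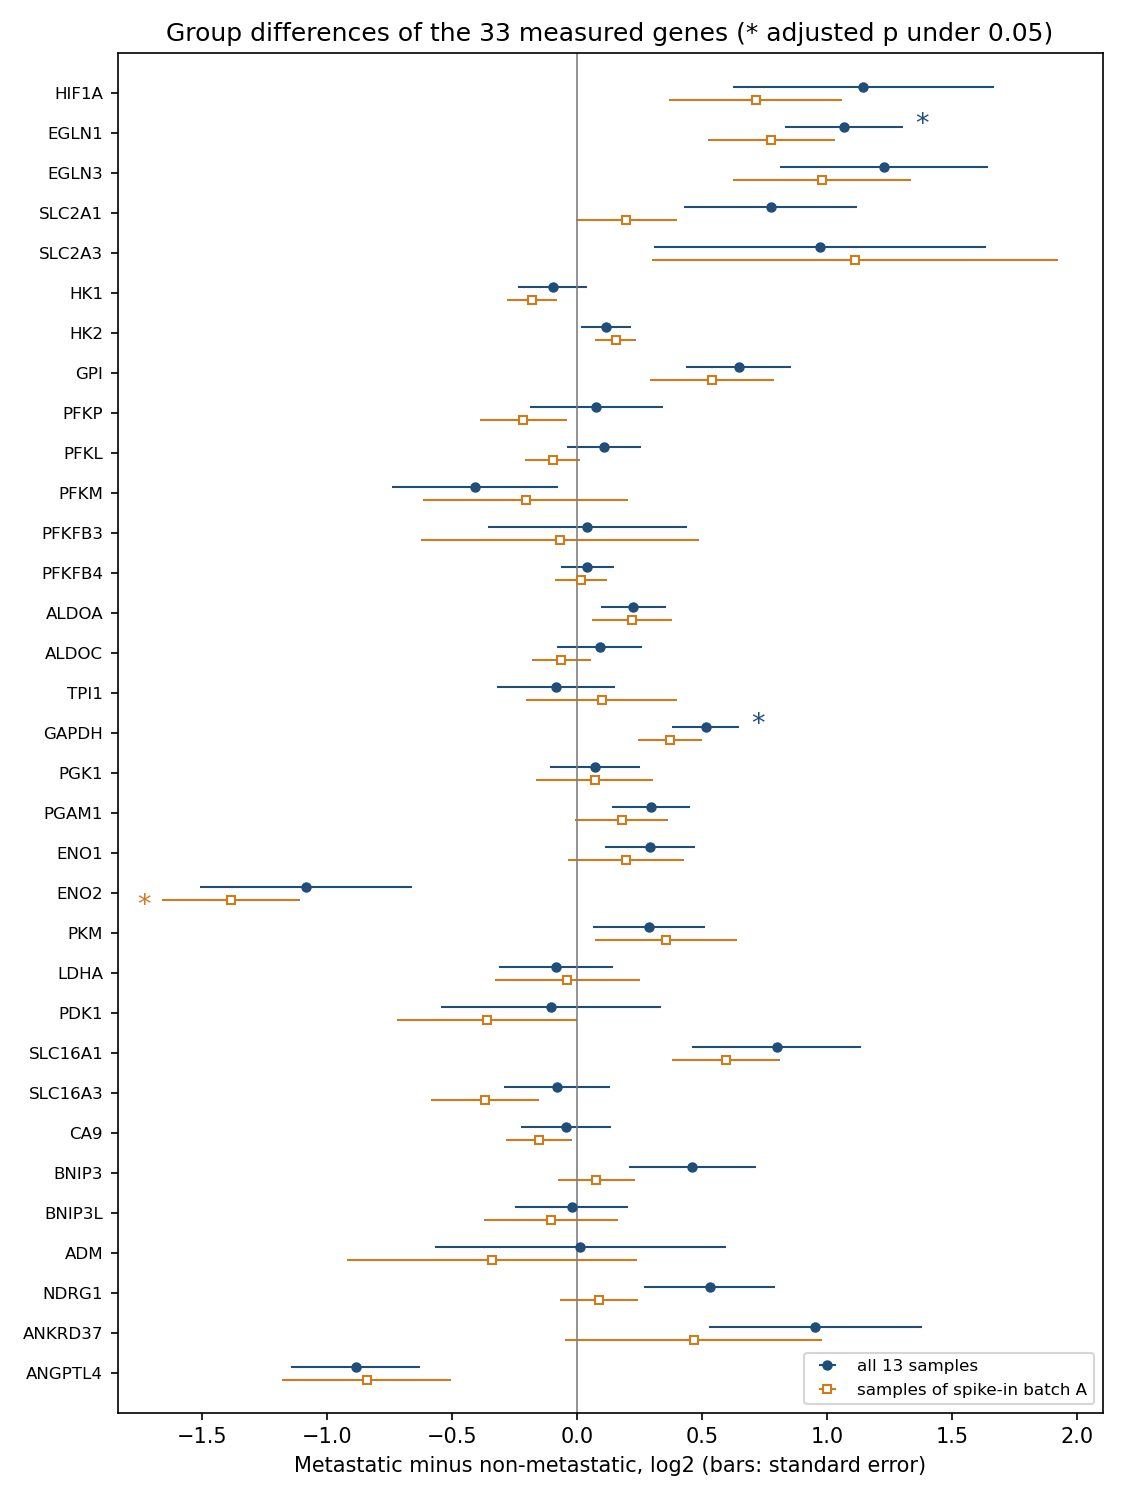
Difference in log2 intensity, metastatic minus non-metastatic, with its SE for each of the 33 members, over all 13 samples and within batch A (5 metastatic and 4 non-metastatic samples). A star marks an adjusted p under 0.05 in that fit: EGLN1 and GAPDH over all samples and ENO2 within batch A.

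Over all 13 samples, the 3 genes of oxygen sensing had the 3 largest positive differences of the members. Within batch A the largest was that of SLC2A3 (1.11), followed by EGLN3 (0.98), EGLN1 (0.78) and HIF1A (0.71). EGLN1, the main prolyl hydroxylase that marks HIF1A for degradation, read 9.00, 7.87, 8.04, 8.46 and 7.79 in MET1 to MET5, and a lowest of 6.61, a median of 7.16 and a highest of 7.77 in the non-metastatic samples. Every metastatic sample lay above every non-metastatic one, although MET5 and NM8 were nearly equal. EGLN1 rose from 7.16 ± 0.40 (SD, n = 8) to 8.23 ± 0.50 (n = 5), by 1.07 with an SE of 0.24 (adjusted p = 0.0221, limma). The non-metastatic mean was at the highest reading of the spike-in probe sets in batch B, whose median was 4.14. Within batch A the difference was 0.78 ± 0.25 (adjusted p = 0.138), without MET1 it was 0.88 (adjusted p = 0.0589), and its other probe set differed by 0.20 with both means under 7.16. In these bulk samples, a difference in the share of cells that hold a transcript and one in its amount per cell cannot be told apart.

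HIF1A read 10.63, 10.55, 11.31, 11.47 and 11.64 in MET1 to MET5, and 7.82, 9.95 and 11.63 as the lowest, median and highest non-metastatic values. The metastatic samples were uniformly high, while the non-metastatic ones ran from the lowest sample, NM1, to NM2 at nearly the top, so the groups overlapped. HIF1A differed by 1.14 ± 0.52 (adjusted p = 0.201), or 0.71 ± 0.35 in batch A alone (adjusted p = 0.284), and all 3 probe sets were positive, between 0.55 and 1.17. EGLN3, a prolyl hydroxylase that is itself a HIF target, read 7.54, 6.39, 8.14, 6.63 and 6.86 in the metastatic samples and between 4.75 and 7.39, with a median of 5.88, in the others. MET3 and MET1 were highest, and NM2 and NM7 lay among the metastatic values. Its difference of 1.23 ± 0.42 was not called (adjusted p = 0.101, and 0.98 with adjusted p = 0.175 within batch A), and neither group mean exceeded 7.16.

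**Figure D3:**
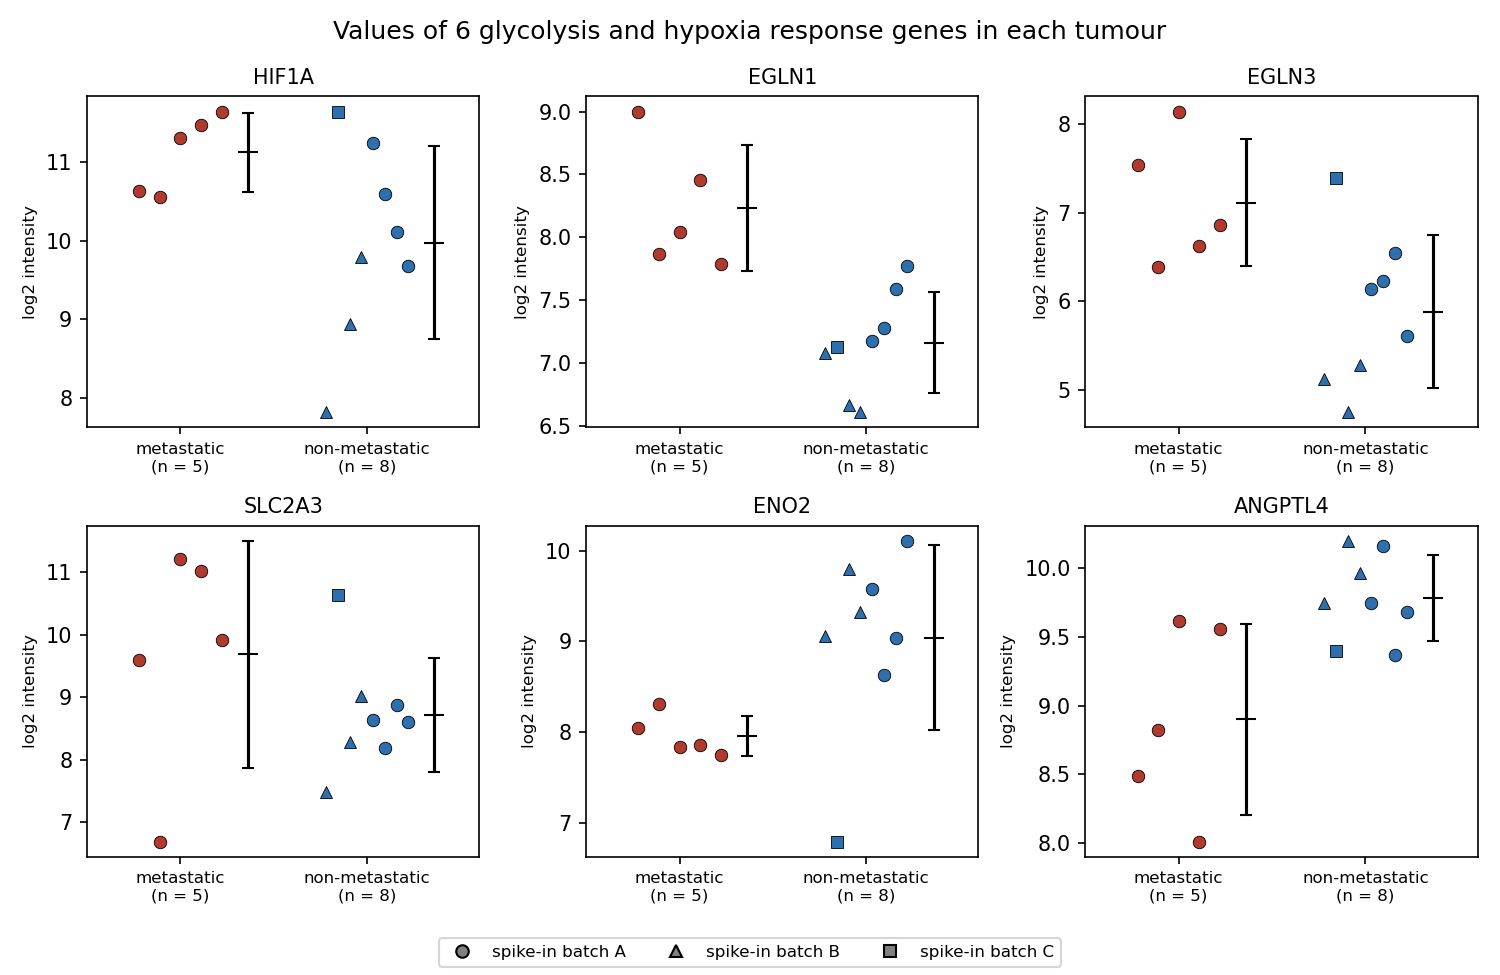
Log2 intensity of HIF1A, EGLN1, EGLN3, SLC2A3, ENO2 and ANGPTL4 in each sample by group, with the spike-in batch as the symbol and bars for the mean and SD. EGLN1 is separated between the groups, SLC2A3 spreads from 6.69 to 11.21 among the metastatic samples, and in ENO2 the non-metastatic sample NM2 lies at 6.79, under every other sample.

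Glucose uptake was not called different. SLC2A1, the widespread basal glucose transporter GLUT1, read 9.02, 8.74, 9.39, 9.77 and 9.02 in MET1 to MET5, and 7.33, 8.83 and 9.21 as the lowest, median and highest of the non-metastatic samples. The low values were those of batch B, and the other non-metastatic samples lay inside the metastatic range. Its difference was 0.77 ± 0.35 over all samples (adjusted p = 0.195) but 0.20 ± 0.20 within batch A (adjusted p = 0.622), and the difference between these was not tested. Its other probe sets differed by 1.58 and 1.07, and by 1.10 and 0.77 within batch A, with none called.

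SLC2A3, the high-affinity transporter GLUT3 that is abundant in neurons and leukocytes, read 9.59, 6.69, 11.21, 11.02 and 9.92 in the metastatic samples, and 7.48, 8.62 and 10.64 as the lowest, median and highest of the others. MET3 and MET4 were the highest of all samples and MET2 the lowest, so the metastatic group enclosed the other. The SD of 1.81 in metastatic samples was at percentile 99.4 of all genes, and that of 0.91 in non-metastatic samples at 96.4. The difference was 0.97 ± 0.66 (adjusted p = 0.376), or 1.11 within batch A (adjusted p = 0.477). Without MET2 it was 1.72 over the other samples (adjusted p = 0.068), and within batch A it was 1.86 and passed (adjusted p = 0.0422). Of the 9 fits that each left out 1 sample of batch A, 1 called it. Its other probe sets differed by 1.10, 0.03 and 1.14, with none called, and the third had both means under 7.16. At the probe set that differed by 0.03, the metastatic SD was 0.15. Over 11 macrophage markers, 10 of which had both means above 7.16, the mean log2 level was 8.94, 7.96, 10.03, 9.96 and 8.64 in MET1 to MET5 and between 8.35 and 9.99 in the non-metastatic samples. Among the metastatic samples, MET2 was lowest and MET3 and MET4 highest in both measures, 0 of the 11 markers was called (0 at an unadjusted p under 0.05 by limma), and the part of macrophage content in the SLC2A3 values was not tested.

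The hexose phosphorylation and phosphofructokinase steps held 8 members, with 0 called in either fit by limma and 1 with an unadjusted p under 0.05 over all samples. That gene was GPI, which interconverts glucose and fructose phosphates and read 11.19, 10.57, 11.29, 11.42 and 11.25 in MET1 to MET5, against 10.01, 10.42 and 11.09 as the lowest, median and highest non-metastatic values. All metastatic samples except MET2 lay above every non-metastatic sample. The difference was 0.65 ± 0.21 (adjusted p = 0.0903), 0.54 within batch A (adjusted p = 0.261), and 0.79 without MET2 (adjusted p = 0.0567).

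Of the hexokinases, which trap glucose in the cell, HK1 differed by -0.10 ± 0.14 and HK2 by 0.12 ± 0.10. The other HK1 probe sets went the other way, by 0.14 and 0.62, neither called. The phosphofructokinase isoforms, which catalyse the committed step, differed by 0.08 ± 0.27 (PFKP), 0.11 ± 0.15 (PFKL) and -0.41 ± 0.33 (PFKM), with MET4 lowest of all samples for PFKM. Other PFKL probe sets differed by -0.06, -0.01 and -0.09, with none called. PFKFB3 and PFKFB4, which make the phosphofructokinase activator fructose 2,6-bisphosphate, had differences of 0.04 each. PFKFB3 spread widely in the metastatic group, from 7.30 in MET2 to 10.65 in MET3 (SD 1.20), whereas the non-metastatic SD was 0.35. PFKFB4 had both means under 7.16.

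Lower glycolysis, from aldolase to pyruvate kinase, was carried by transcripts of high intensity in both groups and mostly showed small differences. ALDOA differed by 0.23 ± 0.13, ALDOC by 0.09 ± 0.17 and TPI1 by -0.08 ± 0.24. Other TPI1 probe sets differed by -0.38 and 0.16, neither called. PGK1, the first step that makes ATP, differed by 0.07 ± 0.18, PGAM1 by 0.30 ± 0.16 and ENO1 by 0.29 ± 0.18. PKM, pyruvate kinase of most tissues, differed by 0.29 ± 0.22, with none of these 7 called over all samples or within batch A.

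GAPDH, the dehydrogenase that reduces NAD in the pathway, read 5.93, 5.81, 6.03, 6.35 and 5.97 in the metastatic samples at its 1 tested probe set, and 5.15, 5.48 and 5.81 as the lowest, median and highest of the others. The groups touched where MET2 equalled NM5. GAPDH rose by 0.51 ± 0.13 (adjusted p = 0.0425), but both means, 6.02 and 5.50, lay under 7.16, and it was called in 4 of 13 fits that each left out 1 sample and not within batch A (0.37, adjusted p = 0.156). The 3 control probe sets of GAPDH, bright in every sample, averaged 12.24 and 11.86 at the 3′ end, 12.23 and 11.62 in the middle and 11.64 and 11.15 at the 5′ end in metastatic and non-metastatic samples. Their differences were 0.38, 0.61 and 0.49, with exact two-sided permutation p of 0.132, 0.0124 and 0.073 and values adjusted over the 3 of 0.132, 0.0372 and 0.11. Within batch A the differences were 0.65, 0.55 and 0.56, with adjusted permutation p of 0.0951, 0.19 and 0.19.

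ENO2, the enolase isoform best known from neurons and neuroendocrine cells, went the other way. It read 8.04, 8.31, 7.83, 7.86 and 7.75 in MET1 to MET5, and 6.79, 9.19 and 10.11 as the lowest, median and highest non-metastatic values. Every non-metastatic sample except NM2 lay above all metastatic ones. Over all samples the difference was -1.08 ± 0.42 and not called (adjusted p = 0.147). Without NM2 it was -1.40 (adjusted p = 0.00303, limma), in a fit that called 10.7% of all genes. Within batch A, where the groups did not overlap, ENO2 fell by 1.38 ± 0.27 (adjusted p = 0.0352), and this call was kept in 2 of the 9 fits that each left out 1 sample of the batch. Its other probe sets differed by -0.74 and -0.77 and were not called. Over the 4 measured neural and Schwann cell markers, the mean level was between 7.17 and 8.21 in metastatic and between 6.62 and 7.28 in non-metastatic samples. Of these 4, NEFM rose by 2.10 over all samples (adjusted p = 0.0442) but was not called within batch A (1.97, adjusted p = 0.21), and S100B, SOX10 and GFAP were not called.

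Lactate production and export showed no call. LDHA, the lactate dehydrogenase subunit induced by HIF, had means of 11.76 and 11.85 and a difference of -0.08 ± 0.23, with values from 11.04 to 12.28 in both groups together. PDK1, the kinase that blocks pyruvate dehydrogenase, differed by -0.10 ± 0.44, and the lactate exporter SLC16A3 by -0.08 ± 0.21. SLC16A1, the more general monocarboxylate carrier, read 5.76, 5.20, 5.78, 6.03 and 6.36 in the metastatic samples, and 3.89, 5.09 and 6.38 as the lowest, median and highest of the others. The metastatic values lay in the upper part of the non-metastatic range, and all but NM3 of that group were at 5.42 or lower. Its difference of 0.80 ± 0.34 was not called (adjusted p = 0.175, and 0.60 with adjusted p = 0.173 within batch A), with both means under 7.16.

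The other hypoxia response genes included no call and pointed in both directions. ANKRD37, an ankyrin repeat gene induced by HIF1A, read 7.99, 7.01, 8.59, 9.41 and 8.67 in MET1 to MET5, and 6.62, 7.16 and 8.80 as the lowest, median and highest non-metastatic values. MET4 was highest, MET2 was inside the range of batch B and NM2, and NM5 and NM7 were among the high samples. The difference was 0.95 ± 0.42 (adjusted p = 0.193), and 0.47 ± 0.51 within batch A (adjusted p = 0.65).

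NDRG1, a stress-induced gene of differentiation, read 7.49, 7.52, 7.93, 7.98 and 7.84 in the metastatic samples, and 6.35, 7.41 and 7.88 as the lowest, median and highest of the others. The 3 samples of batch B lay apart at the bottom. NM5, NM6 and NM8 lay within the metastatic range, and NM7 at 7.33 and NM2 at 7.48 under it. Its difference of 0.53 ± 0.26 was not called, nor was that of 0.09 ± 0.16 within batch A.

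ANGPTL4, a secreted inhibitor of lipoprotein lipase that HIF and fasting induce, had the largest negative difference after ENO2. It read 8.49, 8.82, 9.62, 8.01 and 9.56 in MET1 to MET5, and 9.37, 9.75 and 10.20 as the lowest, median and highest non-metastatic values. MET3 and MET5 lay inside the non-metastatic range, and MET1, MET2 and MET4 under it. The difference was -0.89 ± 0.26 (adjusted p = 0.0634, and -0.84 with adjusted p = 0.21 within batch A), and its other probe sets gave -0.02 and -1.70, neither called.

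CA9, the tumour-associated carbonic anhydrase often used as a marker of hypoxia, differed by -0.04 ± 0.18. ADM, a vasodilator peptide, differed by 0.01 ± 0.58, with samples from 7.85 to 10.62 in the metastatic and from 7.74 to 10.75 in the non-metastatic group. The mitophagy receptors BNIP3 and BNIP3L differed by 0.46 ± 0.25 and -0.02 ± 0.23, with both means under 7.16 for BNIP3. None of these 4 genes was called over all samples or within batch A, and ADM had the widest spread of them in both groups.

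The members also varied among tumours of the same group. MET2 held the lowest metastatic value in 20 of the 33 members, and MET4 the highest in 14. The shares of all genes in which these samples were lowest or highest were not counted. MET2 was also the lowest of all samples in the mean of pyruvate oxidation genes (8.45), pentose phosphate genes (8.71) and macrophage markers. It was not the lowest for other HIF regulators or other glycolysis enzymes. Its ACTB 3′ minus 5′ signal of 2.87 was the highest of batch A. The mean over all 33 members was 8.83, 8.50, 9.26, 9.18 and 9.06 in MET1 to MET5. It ran from 8.75 to 9.00 in NM5 to NM8 and from 8.29 to 8.64 in batch B, and was 8.89 in NM2. MET3, MET4 and MET5 thus stood above every non-metastatic sample, MET1 lay within their range and MET2 below every other sample of batch A. The median SD of a member was 0.40 in the metastatic and 0.37 in the non-metastatic group, beside 0.24 and 0.32 over all genes.

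Genes of the same pathways that are not in the member list were called in 6 of 85 cases (7.06%), 1 higher and 5 lower, beside 5.35% of all genes (1.65% higher and 3.70% lower). The median difference was 0.07, against 0.05 for all genes, and 2 of the 85 were called within batch A, beside 2.82%. PGD, a dehydrogenase of the pentose phosphate pathway, read 10.13, 10.13, 10.38, 10.28 and 10.21 in MET1 to MET5 and 10.68, 11.11 and 11.44 as the lowest, median and highest non-metastatic values. The groups did not overlap. PGD fell by 0.86 ± 0.13 (adjusted p = 0.00352). Within batch A it fell by 0.76 (adjusted p = 0.0182), and over all samples it was called in 13 of 13 fits that each left out 1 sample. Of its other probe sets, 1 differed by -0.85 and 1, of low level, by 0.02, neither called over all samples. Within batch A the first of these differed by -0.96 and passed (adjusted p = 0.021). TKT (0.69, and 0.95 within batch A), RPE (-0.39 and -0.24) and PGLS (-0.38 and -0.35) were not called.

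Of 26 genes of pyruvate oxidation and the citric acid cycle, 0 were called higher and 2 lower. MPC1, a subunit of the mitochondrial pyruvate carrier, read 9.52, 9.47, 9.43, 9.39 and 9.37 in the metastatic samples and 9.51, 10.62 and 11.24 as the lowest, median and highest of the others. Only NM2 reached the metastatic range, which was narrow. MPC1 fell by 1.09 ± 0.24 (adjusted p = 0.0234). In the samples of batch A it fell by 1.00 (adjusted p = 0.0154). Its other probe sets differed by -1.03 and -0.21, uncalled over all samples. Its partner MPC2 differed by 0.75 (adjusted p = 0.0715, and 0.93 with adjusted p = 0.0657 within batch A). A second MPC2 probe set passed at 0.73 (adjusted p = 0.0377), and at 0.80 within batch A (adjusted p = 0.0499).

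IDH3G, a subunit of isocitrate dehydrogenase, read 9.49, 9.46, 9.45, 9.47 and 9.22 in MET1 to MET5 and from 9.51 to 10.38 in the non-metastatic samples. It fell by 0.62 ± 0.14 (adjusted p = 0.024) without overlap. Within batch A its difference was -0.44 and not called (adjusted p = 0.0965). DLD, a shared subunit of the pyruvate and oxoglutarate dehydrogenases, had a difference of -0.83 (adjusted p = 0.0565), which was -0.88 in batch A alone (adjusted p = 0.094). PDK4, a starvation-induced kinase of pyruvate dehydrogenase, ran from 5.16 in MET4 to 11.36 in MET3 and differed by -1.50 (adjusted p = 0.271, and lower still but uncalled within batch A, adjusted p = 0.343).

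**Figure D4:**
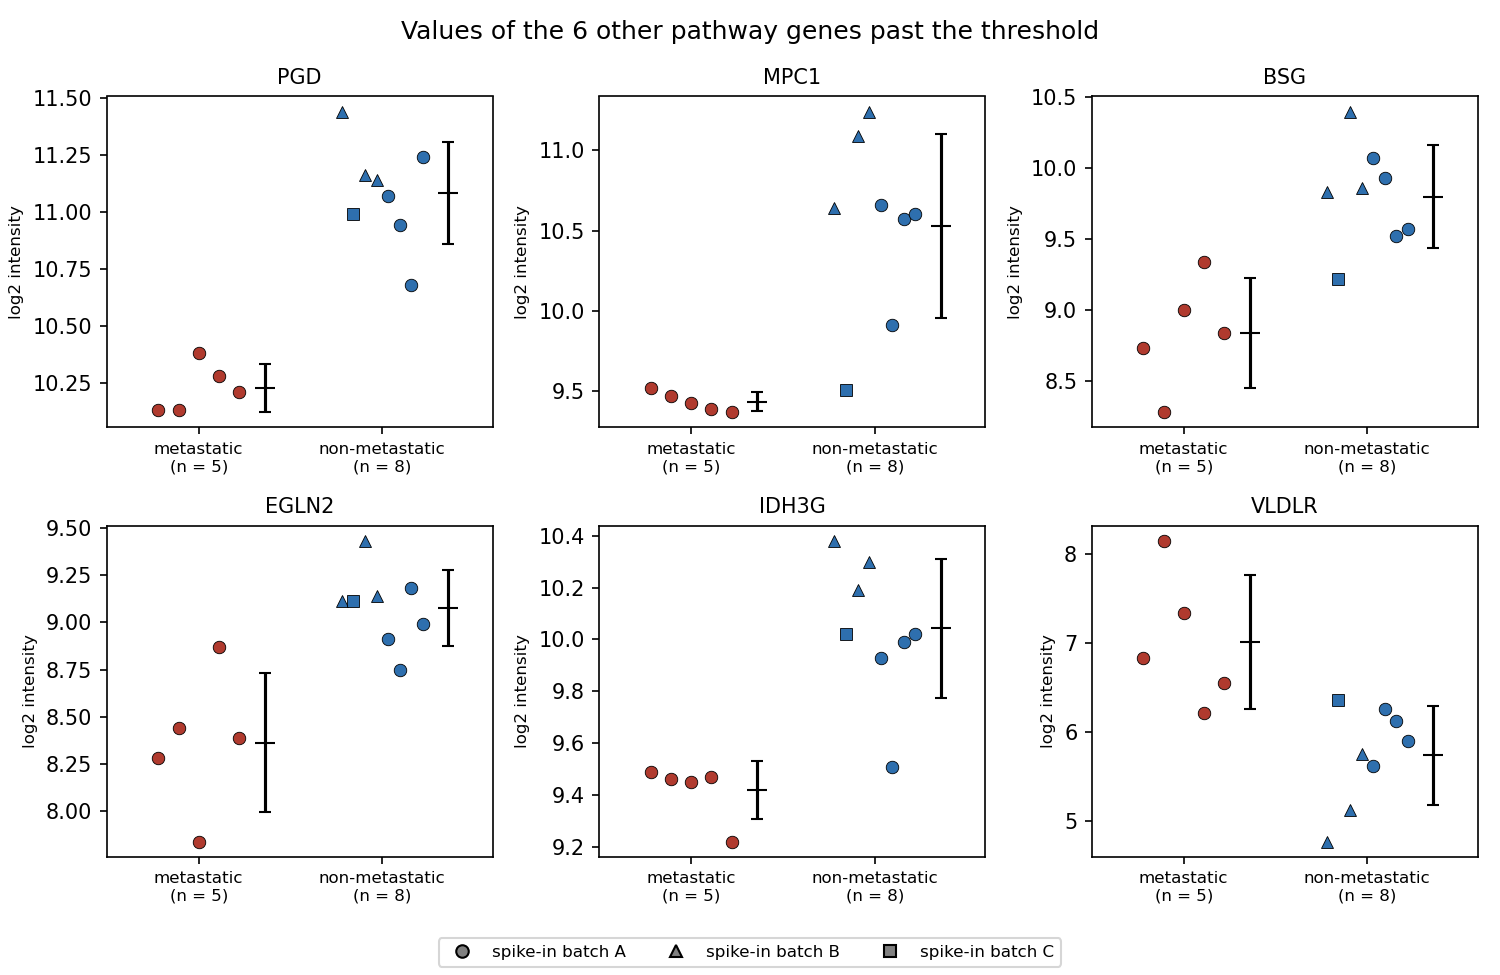
Log2 intensity in each sample of the 6 other pathway genes called over all samples (PGD, MPC1, BSG, EGLN2, IDH3G and VLDLR) by group, with the spike-in batch as the symbol and bars for the mean and SD. PGD and IDH3G do not overlap between the groups, and the metastatic values of MPC1 lie between 9.37 and 9.52.

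Among 8 other HIF subunits and regulators, 0 were called higher and 1 lower. EGLN2, a prolyl hydroxylase related to EGLN1, read 8.28, 8.44, 7.84, 8.87 and 8.39 in MET1 to MET5 and 8.75, 9.11 and 9.43 as the lowest, median and highest non-metastatic values. Only MET4 entered the non-metastatic range. EGLN2 fell by 0.71 ± 0.16 (adjusted p = 0.0247), opposite to EGLN1, and its difference within batch A was -0.59 and not called (adjusted p = 0.132). Its other probe sets differed by -0.49 and 0.15, neither called. ARNT, the partner of HIF1A, differed by -0.28 (-0.21 within batch A), EPAS1, the HIF2 alpha subunit, by 0.26 (0.30) and VHL by -0.02 (-0.20). ARNT2 stood at 0.31 (0.15 within batch A) and HIF3A at 0.39 (0.08), and these 5 genes were uncalled in both fits.

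Of 21 other HIF target genes, 1 was called. VLDLR, a lipoprotein receptor, rose by 1.28 ± 0.33 (adjusted p = 0.0413) from 5.74 to 7.02, both under 7.16, and its difference within batch A was 1.04 and not called (adjusted p = 0.154). P4HA2, a collagen prolyl hydroxylase, read 12.01, 9.74, 10.65, 11.24 and 9.93 in MET1 to MET5 and from 7.58 to 10.72 in the others. The groups overlapped and the difference of 1.60 ± 0.54 was not called (adjusted p = 0.10, and 1.51 with adjusted p = 0.206 within batch A). Other P4HA2 probe sets passed at 2.07 (adjusted p = 0.0415) and narrowly at 1.58 (an adjusted p that rounds to 0.05), and none of its probe sets was called within batch A. VEGFA, the angiogenic factor, differed by -0.07 ± 0.44 over all samples and by -0.80 within batch A. MXI1 differed by 0.69 (0.26 within batch A) and TFRC by 0.58 (0.65), and all 3 were uncalled in both fits.

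In transport, 1 of 10 genes was called. BSG, the chaperone that carries SLC16A1 and SLC16A3 to the membrane, read 8.73, 8.28, 9.00, 9.34 and 8.84 in the metastatic samples and 9.22, 9.85 and 10.40 as the lowest, median and highest of the others. MET4 alone overlapped with the non-metastatic samples. BSG fell by 0.96 ± 0.20 (adjusted p = 0.0189). Within batch A its difference was -0.93 and not called (adjusted p = 0.0531). A second BSG probe set passed at -0.66 (adjusted p = 0.0311). SLC2A13 (0.75, and 0.48 within batch A), SLC2A4 (0.26 and 0.28) and SLC16A7 (-0.22 and -0.25) were not called, nor were any of 16 other enzymes of glycolysis and gluconeogenesis, among them PGM1 (0.40, and 0.17 within batch A), PFKFB2 (0.63 and 0.26), PFKFB1 (0.32 and 0.13) and PGAM2 (0.27 and 0.17), with 1 of the 16 at an unadjusted p under 0.05 by limma.

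Cell division was higher in metastatic tumours beside these results. All 5 measured division markers (CCNB2, CDC20, AURKA, PLK1 and BIRC5) rose, with a median of 1.49, and 1 of them, PLK1, was called within batch A. The mean level over the 5 lay between 7.66 and 9.46 in metastatic and between 6.84 and 7.62 in non-metastatic samples, and its part in the values above was not tested. MET5 stood apart in skeletal muscle markers, with a mean of 8.50 over 14 genes against 6.37 to 7.28 in all other samples, and 0 of the 14 were called (3 at an unadjusted p under 0.05 by limma). Endothelial and adipocyte markers had 0 of 8 and 0 of 6 genes called by limma, with 0 genes in each list at an unadjusted p under 0.05. The same limma fit called 0 of 8 mesenchymal, 0 of 3 epithelial and 0 of 3 erythroid markers, with 0, 0 and 1 at an unadjusted p under 0.05.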

How the data were processed

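Per the labels' protocols, total RNA was extracted with silica columns, labelled with biotin by a 3′ transcription kit and hybridised to 1 array per sample. The authors deposited 1 table of processed values, read here as log2 intensities from their range of 0 to 14.33. Values were used as deposited, with sample medians of 6.71 to 6.94. For software, background correction and normalization, the sources used here name no method. The number of arrays limits the precision.

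Each of 42924 probe sets (111 controls left out) was fitted with limma 3.58.1 in R 4.3.3 (lmFit, eBayes, two-sided, group as the only term, threshold 0.05). The procedure was tested on simulated normal noise in which 200 probe sets were changed. The noise had the SD of each probe set within the groups over all 13 samples, also where batch A was simulated. The batch A shares thus do not rest on the spread within that batch. The real fits called more probe sets, 2104 over all samples and 1192 within batch A. Changes of 0.5 log2 were recovered in 0% of cases, over all samples and within batch A. Those of 1 log2 were recovered in 59% over all samples and 23.5% within batch A, and those of 2 log2 in 94% and 85.5%. A difference that was not called is thus not shown to be absent. Genes were named from the platform annotation. Of the 71 tested member probe sets, 69 gene IDs were found in the RefSeq table of UU_Cfam_GSD_1.0, and 0 symbols changed. Batches were read from spike-ins after the data were seen. GAPDH controls were tested by exact permutation with scipy 1.17.1.

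The members, gene lists and tests were chosen with earlier results of these data known. The 12 members with the largest differences are given per sample, of each other list up to 4 genes of smallest p and several fixed by name, and of marker lists mainly the genes of highest mean. Alternatives were batch A, batch or replicate blocks, an ACTB covariate, quantile normalization, a level filter, array weights, gene means and omitted samples.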

Additional observations from a re-analysis of the deposited data

Results flagged for a closer look

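In 9 of 122 groups of single-gene values, 1 sample lay far from the rest of its group, by a gap that is large against the whole range (Dixon's 95% limit); chance alone marks about 1 in 20 groups. Among the members, GPI was low in MET2 at 10.57, with the next sample at 11.19, and PFKM was low in MET4 at 7.25, with the next at 8.31. PGK1 was high in NM7 at 11.53, with the next at 10.99. ENO2 was low in NM2 at 6.79, with the next at 8.63, and this sample decided its call. Of the other pathway genes, NM2 was low for DLD at 9.21 and high for TFRC at 6.77 and TKT at 10.92. MET5 was high for PGAM2 at 7.65 and low for IDH3G at 9.22, and it was also the sample with the highest skeletal muscle markers. Causes were not tested.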

How the results depend on the processing

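The number of members called was small under every setting and its genes changed. Of member genes (2 over all samples), 1 was called within batch A, with the batch as a block, with the ACTB covariate and with the mean of all probe sets of a gene, 5 with array weights and 0 without batch B, a choice made after seeing the data (4 at an unadjusted p under 0.05 by limma). Leaving out each sample gave 0 to 5: 0 without MET1 (9 unadjusted) and 5 without NM2. Of member probe sets (2), 1 was called within batch A, with the batch block and with the ACTB covariate, 8 with array weights and 0 without batch B. Leaving out each sample gave 0 to 7, with 0 without MET1, 6 without MET2 and 7 without NM2. Of other pathway genes (6), 2 were called within batch A, 1 without batch B and 1 to 11 with each sample left out: 1 without MET1, 2 without MET5 and 11 without NM2. Within batch A, leaving out each sample, also chosen later, gave 0 to 2 member genes (3 to 10 at an unadjusted p under 0.05), 0 to 3 member probe sets and 0 to 3 pathway genes, the 0 without NM8 (11 unadjusted). Counts stayed within 1.5 times under quantile normalization and the level filter, although GPI replaced GAPDH in the first. The level filter kept 28 members, without GAPDH, and EGLN1 and ANGPTL4 were called among them. The number called over all 42924 probe sets also changed with the setting. It was 2104 over all samples, 4011 with array weights, 1192 within batch A and 207 without batch B. It was 856 without MET1, 1460 without MET2, 982 without MET5 and 4478 without NM2, and 259 within batch A without NM8. The cause of these changes was not tested.

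Replicate numbers did not pair the samples: correlations of same-numbered samples ran from -0.016 to 0.054. With the replicate block over replicates 1 to 5, 0 member probe sets and 0 member genes were called (10 genes at an unadjusted p under 0.05). Of the other pathway genes, 3 were called with the block. The same samples without the block gave 2, 1 and 4. Over all 42924 probe sets, 733 were called with the block and 1185 without it. Under all settings, 17 to 27 member differences were positive, and no called difference changed sign.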
